A study of Mus musculus with 2 samples.

Results

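The 40 genes described here encode molecular chaperones, folding enzymes and factors that control them. They were taken by symbol from a fixed list in 4 groups: 18 genes of the cytosolic heat shock system, 3 mitochondrial chaperones, 6 subunits of the cytosolic chaperonin and 13 genes of the endoplasmic reticulum (ER) folding machinery. The list was chosen with earlier results of these data known. All 40 were found among the 32285 genes of the deposited matrices, and all 40 had at least 20 transcripts over the libraries together.

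Chaperones hold unfolded or partly folded proteins and use rounds of ATP binding to help them reach their shape. In the cytosol the heat shock response adjusts their supply: unfolded protein releases heat shock factor Hsf1 from its chaperone partners, and Hsf1 then binds heat shock elements in chaperone promoters. In the ER the unfolded protein response does the same job through the sensors Ern1, Eif2ak3 and Atf6, and the transcription factors Xbp1 and Atf6 act on ER stress response elements. Kidney tubule cells, which take up and export large amounts of protein and solute, are known to raise both sets of chaperones after acute injury.

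The data were single-nucleus RNA profiles (10x Genomics Chromium) of frozen kidney from male mice whose genotype the labels give as T1+/+, in the sham group as in the nephrectomy group. Surgery was at 11 weeks of age and tissue was taken 4 weeks after it. In the 5/6 nephrectomy group the right kidney was taken out and, a week later, both poles of the left kidney were tied off, a model in which the remnant kidney scars. In the sham group the flanks were opened, the kidneys were exposed and the wounds were closed. Each group was 1 library, and the number of mice in it and the piece of kidney taken are not given in the sources used here. Surgery therefore cannot be told apart from the mouse, the tissue piece or the library preparation, no test between groups was possible, and each interval below covers counting error only, at 95%.

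The sham library held 3084 barcodes with a median of 5140 transcripts, counted as unique molecular identifiers (UMIs), and the nephrectomy library held 3299 with a median of 6844. After filters 2859 sham and 3064 nephrectomy nuclei were kept, with 19177412 and 25278234 UMIs, and the libraries shared 2 barcodes. Levels are given as UMIs per 1000000 UMIs of the same library or class (CPM). Of 23 clusters, 17 carried the markers of a kidney cell type and gave 11 classes, which are named below as like that type. Unnamed clusters, most of them shallow, held 26.2% of sham and 21.8% of nephrectomy nuclei and stayed in the whole-library sums. Transcripts of cytosolic ribosomal proteins, which are abundant in cytoplasm, served as the measure of cytoplasm carried over with nuclei. Their share of all UMIs was 0.925% for sham and 0.756% for nephrectomy.

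Promoter letters are shown because the 2 response systems are defined by short DNA elements and because the chaperone groups differed in which element they held. RefSeq promoters (GRCm38.p6, the 250 bases before the start) were matched for 33 of the 40 genes and searched on both strands. The promoters of Hspa8, Hsp90aa1, Hsp90ab1, Hsf1, Hspa9, Cct4 and Hyou1 were not matched and therefore not searched. The ER stress response element, CCAAT and CCACG with 9 bases of any kind between them, was in 6 of 12 matched ER genes, in 0 of the other matched chaperone genes and in 0.13% of all 27025 genes. In the lines that follow, capitals mark the fixed letters of the element, and each sequence runs along the gene's own strand. Hsp90b1 holds 2 copies, the second in reverse, and Calr holds its copy in reverse.
Hspa5 (chr2:34772005-34772063, + strand): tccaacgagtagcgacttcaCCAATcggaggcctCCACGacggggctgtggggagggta
Hsp90b1 (chr10:86705513-86705676, - strand): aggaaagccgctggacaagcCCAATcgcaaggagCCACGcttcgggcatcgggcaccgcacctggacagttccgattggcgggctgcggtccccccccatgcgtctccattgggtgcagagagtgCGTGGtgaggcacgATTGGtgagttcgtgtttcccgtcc
Calr (chr8:84847055-84847113, - strand): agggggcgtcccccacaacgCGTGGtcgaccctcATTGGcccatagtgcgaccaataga
Canx (chr11:50325780-50325838, - strand): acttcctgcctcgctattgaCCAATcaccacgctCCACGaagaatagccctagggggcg
Pdia6 (chr12:17266471-17266529, + strand): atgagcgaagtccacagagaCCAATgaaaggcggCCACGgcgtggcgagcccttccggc
Dnajc3 (chr14:118937807-118937865, + strand): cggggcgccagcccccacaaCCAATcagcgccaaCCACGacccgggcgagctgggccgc

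The heat shock element repeats the letters GAA in alternating direction. Its 3-unit form, the units GAA, TTC, GAA or TTC, GAA, TTC with 2 bases of any kind between neighbours, was in 3 matched genes (Hspd1, Hspe1 and Dnajb6) and in 0.514% of all genes. The looser 2-unit form, GAANNTTC or TTCNNGAA, was in 11 of the 33 matched genes and in 14.5% of all genes, and every 3-unit match contains it. None of the 12 matched ER genes held it. The lines below give the 3-unit matches and 4 of the 2-unit matches, with the GAA and TTC units in capitals. Hspd1 and Hspe1 lie on opposite strands, and the printed Hspe1 stretch is also the one before the Hspd1 start that lies 216 bases from the Hspe1 start. The stretch before the other Hspd1 start, 95 bases from the Hspe1 start, held 0 matches. Hspa1a and Hspa1b carry identical letters over the printed stretch. These matches describe letters only, and neither binding nor promoter activity was measured.
Hspe1 and Hspd1 (chr1:55088053-55088082, + strand): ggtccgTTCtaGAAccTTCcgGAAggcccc
Dnajb6 (chr5:29735832-29735884, + strand): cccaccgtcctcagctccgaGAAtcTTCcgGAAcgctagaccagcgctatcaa
Hspa1a (chr17:34972233-34972280, - strand): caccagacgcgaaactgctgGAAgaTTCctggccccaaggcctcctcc
Hspa1b (chr17:34959315-34959362, - strand): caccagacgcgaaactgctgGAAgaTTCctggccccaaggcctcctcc
Hspb1 (chr5:135887782-135887849, + strand): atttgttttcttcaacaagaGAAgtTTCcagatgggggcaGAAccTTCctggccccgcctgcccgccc
Hsph1 (chr5:149636342-149636389, - strand): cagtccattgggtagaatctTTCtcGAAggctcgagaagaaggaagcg

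Chaperone transcripts were lower in the nephrectomy library than in the sham library, most uniformly in the ER group. Of the 40 genes, 26 were at least 1.5-fold lower, 1 was at least 1.5-fold higher and 13 lay between these limits, where 10.7% of all 17417 genes with at least 20 UMIs were that much lower and 9.54% that much higher. All 13 ER genes were lower, against 10 of 18 cytosolic heat shock genes, 2 of 3 mitochondrial chaperones and 1 of 6 chaperonin subunits. At least 2-fold lower were 8 ER, 6 heat shock, 1 mitochondrial and 0 chaperonin genes, where 3.06% of all genes were that much lower and 3.66% that much higher. The median log2 ratio of nephrectomy to sham was -1.02 for the ER group, -0.80 for the heat shock group, -0.86 for the mitochondrial group and -0.42 for the chaperonin group, beside 0.02 for all genes. Ribosomal protein genes lay lower as well, with a median of -0.37 over 80 measured genes, 13 of them at least 1.5-fold lower and 3 at least that much higher. Mitochondrially encoded transcripts had a median of -0.45.

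**Figure D1:**
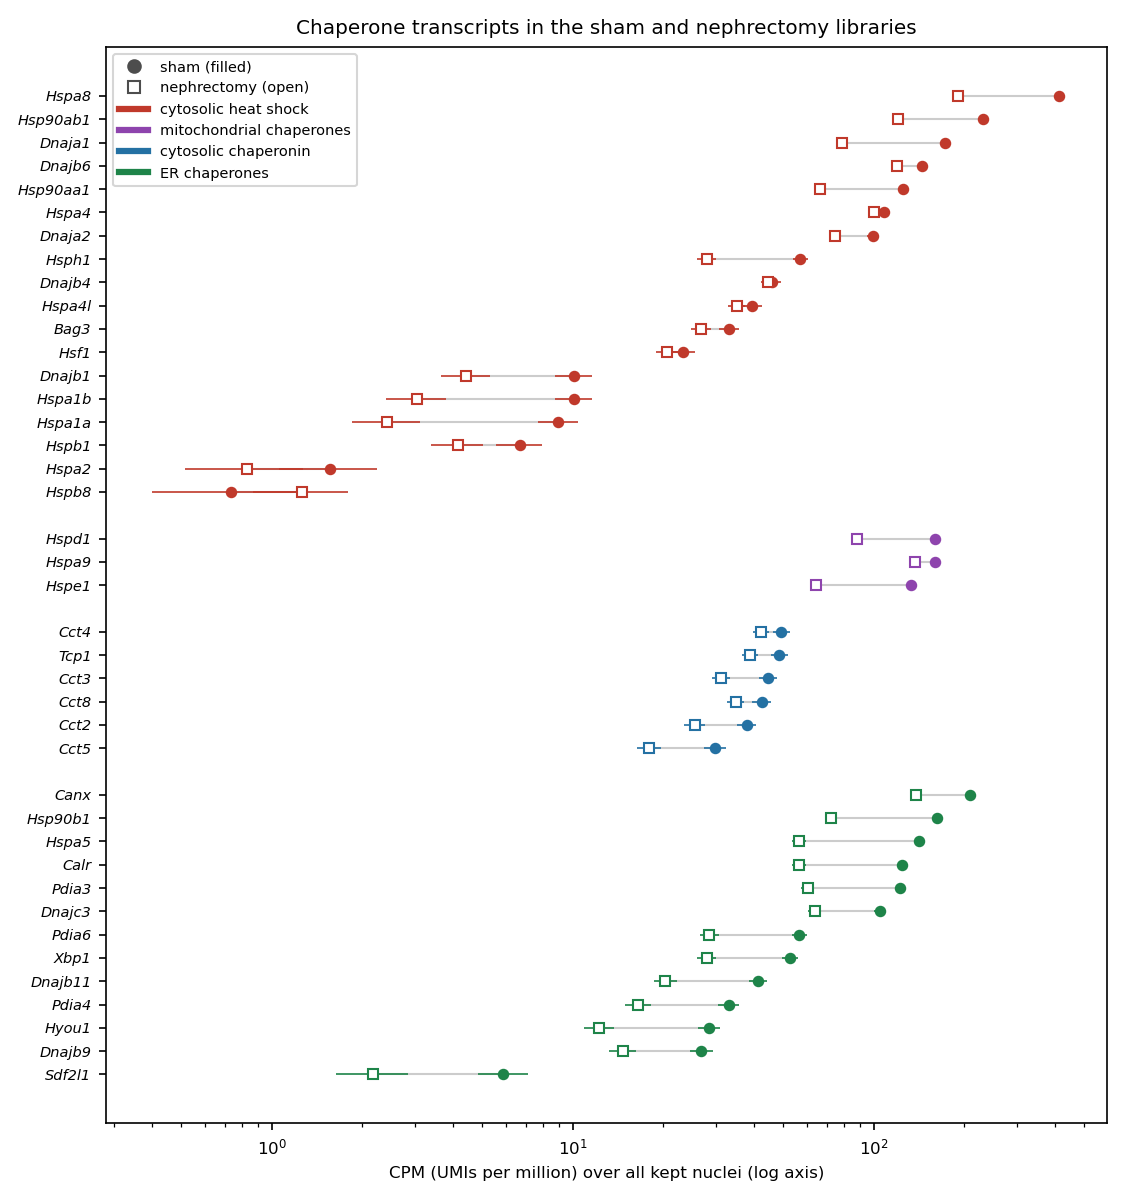
Level of each of the 40 genes in the sham (filled circles) and nephrectomy (open squares) library, in CPM over all kept nuclei on a log axis, with exact 95% Poisson intervals for counting error. Genes are grouped by colour and ordered by sham level within a group. Every ER gene lies further left in the nephrectomy library, while Hspa4, Dnajb4 and Hsf1 nearly coincide and Hspb8 is the only gene further right.

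Hspa5, the ER member of the Hsp70 family and the chaperone that restrains the unfolded protein response sensors, stood at 141 CPM in the sham library (interval 136 to 147) and at 56.5 in the nephrectomy library (53.6 to 59.5). The nephrectomy level was 2.50-fold lower, with an interval of 2.35 to 2.67. The 2712 sham and 1428 nephrectomy UMIs were spread over many nuclei, with at most 20 in any 1 sham nucleus and 17 in any 1 nephrectomy nucleus. Nuclei were also thinned at random to 1000 UMIs each, and 319 sham and 275 nephrectomy nuclei were too shallow for this. After thinning Hspa5 was seen in 16.4% of sham and 7.1% of nephrectomy nuclei; unthinned shares were 48.0% and 30.7%. Every kidney cell type uses these genes, so no class could supply a background share for free RNA. Hspa5 lies at chr2:34771970-34777547.

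The partners of Hspa5 showed the same order of the libraries. Hyou1, which exchanges nucleotide on Hspa5, went from 28.4 CPM in sham to 12.3 in nephrectomy, 2.31-fold lower (2.01 to 2.67). Sdf2l1, a small partner that keeps Hspa5 cycling, had only 113 and 55 UMIs and was 2.71-fold lower (1.95 to 3.81), the lowest ratio of the ER group. Among the J-domain partners that hand substrates to Hspa5, Dnajb11 was 2.03-fold lower (41.3 and 20.3 CPM), Dnajb9 1.82-fold lower (26.8 and 14.7) and Dnajc3 1.64-fold lower (105 and 63.8). The counting intervals of these partners did not overlap between libraries. The share of all genes of which this holds was not computed, and the intervals leave out variation between mice.

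Hsp90b1, the ER member of the Hsp90 family, stood at 162 CPM in sham and 72.4 in nephrectomy, 2.24-fold lower (2.12 to 2.38). The lectin chaperones Calr and Canx hold newly made glycoproteins. Soluble Calr was at 125 CPM in sham and 56.7 CPM in nephrectomy, 2.20-fold lower (2.06 to 2.35). Membrane-bound Canx was at 210 (203 to 216) and 138 CPM, 1.52-fold lower (1.45 to 1.59), the smallest difference of the ER group and close to the 1.5-fold limit.

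The disulfide isomerases form and reshuffle the bonds between cysteines. Pdia3, which works with Calr and Canx, was 2.03-fold lower (1.90 to 2.17), at 123 CPM in sham and 60.4 in nephrectomy. Pdia4 was 2.0-fold lower (33.0 and 16.5 CPM) and Pdia6 1.99-fold lower (56.7 and 28.5 CPM). Xbp1, the transcription factor of the group, was 1.89-fold lower (1.72 to 2.09), at 52.8 and 27.9 CPM. Cell Ranger counts per gene do not separate the spliced, active form of Xbp1 from the unspliced one. The 6 ER genes with the response element had a median log2 ratio of -1.06, and the other ER genes, Pdia3, Pdia4, Dnajb9, Dnajb11, Hyou1, Sdf2l1 and Xbp1, lay between 1.82-fold and 2.71-fold lower. Genes with and without a match were thus both lower; the promoter of Hyou1 was not matched.

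In the cytosolic heat shock group the stress-inducible Hsp70 genes had the lowest ratios. Hspa1a (chr17:34969190-34972156) stood at 8.97 CPM in sham (7.68 to 10.4) and 2.41 in nephrectomy (1.85 to 3.10), 3.72-fold lower (2.76 to 5.06). Its neighbour Hspa1b (chr17:34956436-34959238) stood at 10.1 and 3.05 CPM, 3.32-fold lower (2.54 to 4.38). These rest on 172 and 61 UMIs for Hspa1a and on 194 and 77 for Hspa1b. The genes are near-identical copies, so reads may have been split between them or dropped, and the value of either alone is uncertain. Dnajb1, an inducible J-domain partner of Hsp70, was 2.28-fold lower (1.80 to 2.91), at 10.1 and 4.43 CPM.

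The main Hsp70 and Hsp90 machines of the cytosol were lower by factors like those of the ER group. Hspa8, the constitutive cytosolic Hsp70, stood at 412 CPM in sham and 191 in nephrectomy, 2.15-fold lower (2.08 to 2.23). Processed copies of Hspa8 elsewhere in the genome may share its reads. Hsp90ab1, the constitutive Hsp90, was 1.92-fold lower (232 and 121 CPM), and Hsp90aa1, the inducible Hsp90, was 1.89-fold lower (125 and 66.4 CPM). The J-domain protein Dnaja1 was 2.20-fold lower (173 and 78.5 CPM), and Hsph1, a large Hsp70 relative that exchanges nucleotide on Hspa8, was 2.05-fold lower (57.1 and 27.9 CPM). The small heat shock protein Hspb1, which holds denatured protein without ATP, was 1.61-fold lower, with an interval of 1.23 to 2.10 that includes the 1.5-fold limit. Hspa2, an Hsp70 best known from the testis, had 30 and 21 UMIs and was 1.88-fold lower (1.04 to 3.46).

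The 7 heat shock genes between the limits lay nearer to the sham level. Dnajb4 stood at 46.0 and 44.7 CPM, a ratio of nephrectomy to sham of 0.972 (0.889 to 1.06). Hspa4, a nucleotide exchange factor of the same family as Hsph1, had a ratio of 0.922 (0.869 to 0.977), and Hspa4l one of 0.887 (0.804 to 0.978). Hsf1, the transcription factor of the response, had a ratio of 0.888 (0.781 to 1.01), at 23.3 and 20.7 CPM. Dnajb6, which keeps aggregation-prone proteins soluble and carries a 3-unit heat shock element, had a ratio of 0.821, Bag3, which links Hsp70 to autophagy, one of 0.807, and Dnaja2 one of 0.751. Hspb8, the small heat shock partner of Bag3, was the only gene counted as higher, with 14 UMIs in sham and 32 in nephrectomy and a ratio of 1.73 whose interval, 0.899 to 3.52, includes 1.

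In mitochondria both genes of the folding cage were past the 1.5-fold limit and the gene of the import motor was not. Hspd1 forms the cage and Hspe1 its lid. Hspd1 stood at 161 CPM in sham and 88.3 in nephrectomy, 1.82-fold lower (1.72 to 1.92). Hspe1 stood at 133 and 64.4 CPM, 2.07-fold lower (1.95 to 2.21), and processed copies of it in the genome may share its reads. Hspa9, the mitochondrial Hsp70 that pulls proteins through the inner membrane, stood at 160.1 and 137 CPM, a ratio of 0.857 (0.816 to 0.900).

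The cytosolic chaperonin is a closed chamber built from several related subunits, which folds actin and tubulin. Its subunits lay mostly closer to the sham level than the ER genes did. Cct5 was 1.66-fold lower (1.47 to 1.88), at 29.8 CPM in sham and 17.9 in nephrectomy. Cct2 and Cct3 had ratios of 0.672 and 0.696, and Tcp1, Cct8 and Cct4 had ratios of 0.801, 0.821 and 0.858. The summed level of the 6 subunits was 253 CPM in sham and 191 in nephrectomy, a ratio of 0.754 (0.725 to 0.785). The summed ratio of the ER group, 0.513 (0.503 to 0.524), and that of the heat shock group, 0.602 (0.591 to 0.612), lay below it without overlap of the counting intervals.

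The chaperone genes differed in how closely their level followed the ribosomal protein share of the nuclei. Nuclei of both libraries were put into 3 bins by their ribosomal protein share, from 0.0521% to 0.649%, to 1.46% and to 9.49% of UMIs. In the sham library Hspa8 was 6.29-fold higher in the top than in the bottom bin and Hsp90aa1 5.32-fold. The sparser Hspb1 and Hspa1b were 4.94-fold and 4.76-fold higher, and Hspe1 was 4.59-fold higher. The summed ribosomal protein genes, by whose share the bins were cut, were 4.81-fold higher. Hsf1 at 0.927, Hyou1 at 0.777 and Dnajb4 at 0.775 were slightly lower in the top bin than in the bottom one. The median of this top-over-bottom ratio was 4.0 for the mitochondrial, 2.39 for the heat shock, 2.30 for the chaperonin and 1.55 for the ER group in the sham library. In the nephrectomy library it was 3.85, 2.17, 2.37 and 2.16 in the same order, with the ER value next to that of the heat shock group. Nuclei in the top bin were also the shallowest, with a median of 1756 UMIs in sham and 1754 in nephrectomy against 8822 and 10817 in the bottom bin. The bins pooled all cell classes, and the median share in sham ran from 0.44% in podocyte-like to 2.61% in immune-like nuclei. Cell makeup and carried-over cytoplasm therefore cannot be told apart in these ratios.

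Within bins the ER group remained lower in nephrectomy. The ribosomal protein levels of the libraries were close there because the bins were cut by that share. Whether carried-over cytoplasm accounts for the ER difference was not tested. From the bottom to the top bin the ribosomal protein ratio was 0.906, 0.983 and 1.06. The summed ER ratio in the same bins was 0.494, 0.554 and 0.677, and all 13 ER genes were below the sham level in each of the 3 bins. The summed heat shock ratio ran the other way, at 0.725, 0.665 and 0.593, with 14 of 18 genes below the sham level in each bin. Hspa4l, Hspb1 and the sparse Hspa2 and Hspb8 were not below it in every bin. Over all kept nuclei 8374 of the 17417 measured genes lay below the sham level. The share of all genes below it in each bin was not computed. The mitochondrial ratios were 0.75, 0.761 and 0.687, and the chaperonin ratios 0.858, 0.816 and 0.776. With equal weight on the 3 bins the median log2 ratio of the heat shock group was -0.36 in place of -0.80, that of the ER group -0.79 in place of -1.02, and that of the ribosomal protein genes -0.065.

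**Figure D2:**
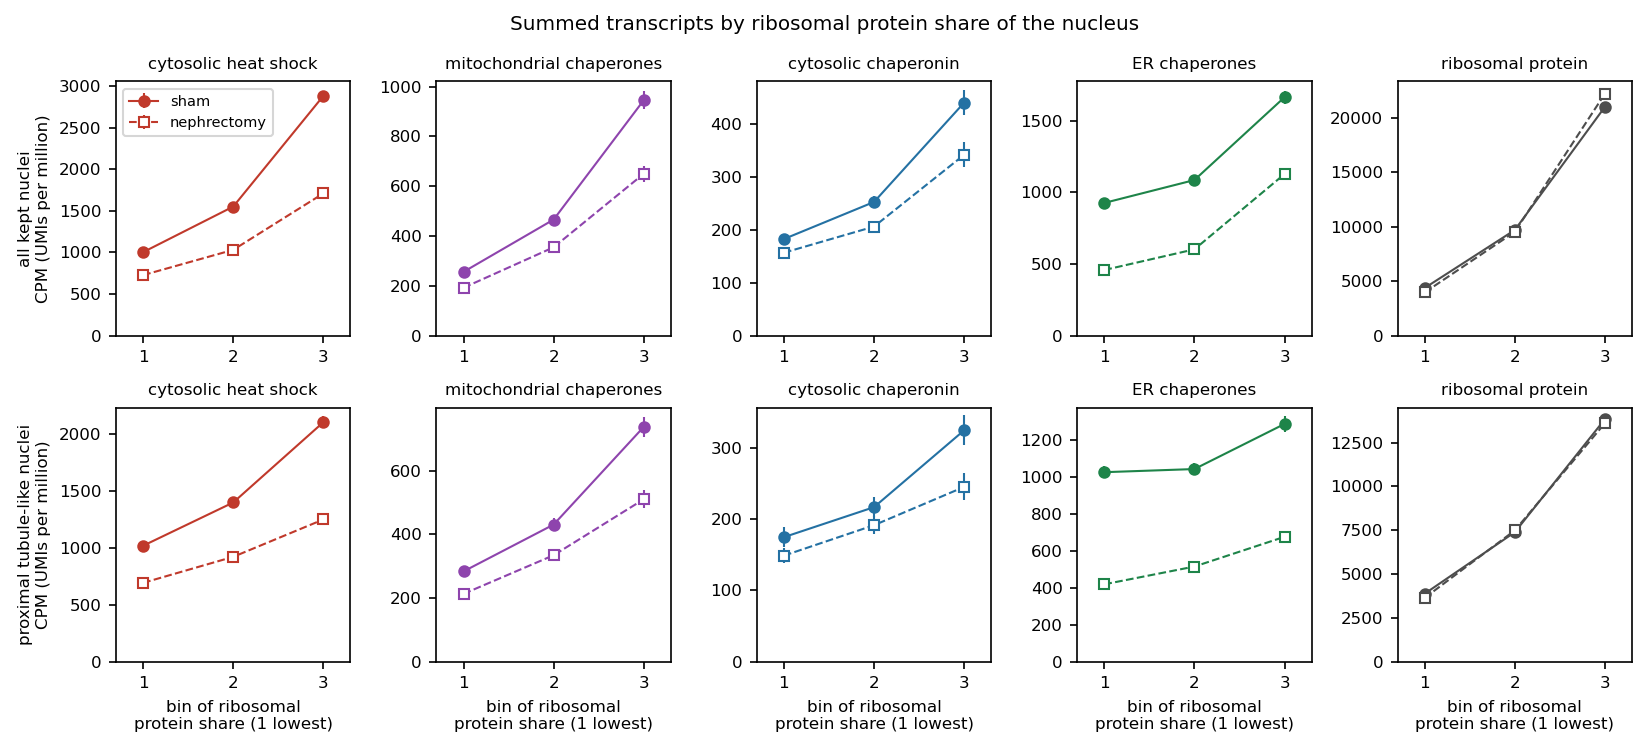
Summed level of each gene group and of the ribosomal protein genes, in CPM (vertical axes start at 0), in 3 bins of nuclei by ribosomal protein share, for all kept nuclei (top) and proximal tubule-like nuclei (bottom). Filled circles are sham, open squares nephrectomy, and bars are 95% counting intervals. The ribosomal protein lines nearly coincide because the bins were cut by that share. The ER line of the nephrectomy library lies below that of sham in every bin.

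Across the 18 heat shock genes the genes that followed ribosomal protein share most closely had the lower ratios. Pearson's r between the log2 of the top-over-bottom ratio in sham and the log2 ratio of nephrectomy to sham was -0.642, and Spearman's rho was -0.688. Over all 40 genes r was -0.382 and rho -0.389, and over the 13 ER genes they were -0.399 and -0.357. These values describe genes measured in the same 2 libraries, with the sham library on both axes, and genes are not independent replicates. Hyou1 combined a 2.31-fold lower level with no rise over the bins of sham, and Hspa9 combined a ratio of 0.857 with a 2.90-fold rise over those bins.

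**Figure D3:**
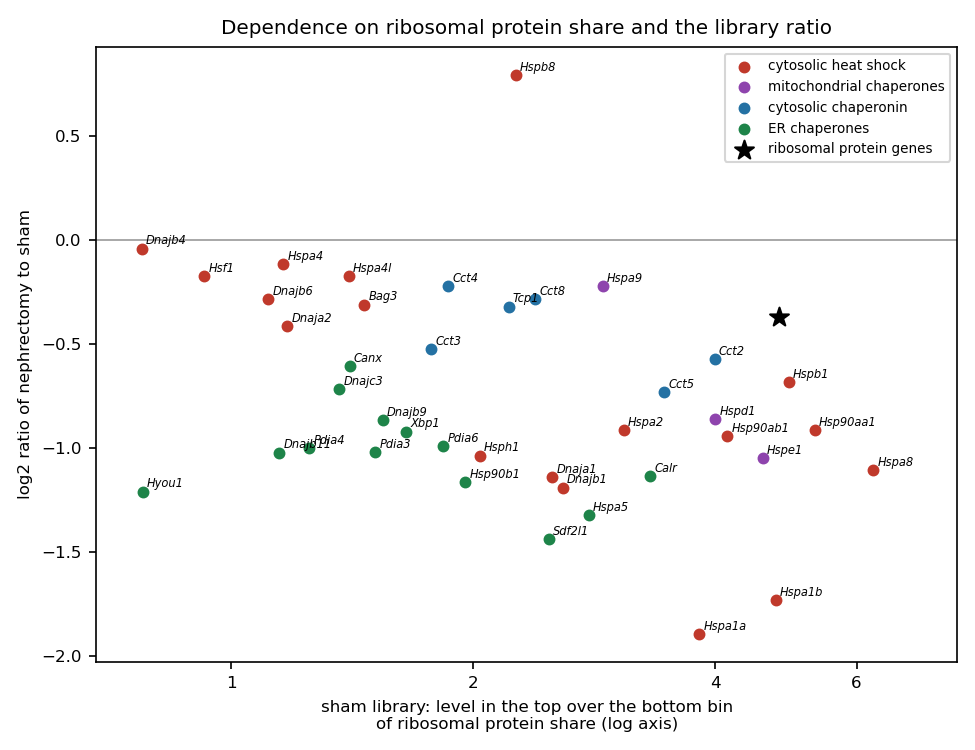
Each of the 40 genes by its level in the top over the bottom bin of ribosomal protein share in the sham library (horizontal, log axis) and by its log2 ratio of nephrectomy to sham (vertical). The star marks the ribosomal protein genes (summed level horizontally, median ratio vertically), and all ER genes (green) lie below it and to its left.

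The lower chaperone level was not limited to 1 cell class. The median log2 ratio of the measured chaperone genes was below 0 in every class, from -0.35 in mural or mesangial-like nuclei to -0.97 in proximal tubule-like nuclei, where the median of all genes lay between -0.05 and 0.07. In the class with most nuclei, proximal tubule-like, 26 of 39 measured genes were at least 1.5-fold lower, against 11.6% of all genes. The count was 18 of 37 in thick ascending limb-like (12.3% of all genes), 17 of 35 in distal convoluted tubule-like (17.0%), 17 of 32 in connecting tubule-like (15.8%) and 11 of 29 in principal-like nuclei (13.7%). Outside the tubule it was 13 of 35 in endothelial-like (11.7%), 16 of 30 in fibroblast-like (16.5%), 15 of 25 in immune-like (17.6%), 14 of 27 in podocyte-like (13.5%) and 5 of 14 in mural or mesangial-like nuclei (16.3%). In intercalated-like nuclei it was 9 of 32 (13%), and the median was -0.37. The ER median there was -0.97 and the heat shock median -0.12, with 6 genes above 0 and 6 below. The summed ratio there was 1.06 (0.855 to 1.33) for mitochondrial chaperones and 0.965 (0.752 to 1.25) for the chaperonin. After thinning each nucleus to 1000 UMIs only 5 genes could be measured in that class, with a median of 0.05. The chaperonin median was 0.01 over 5 genes in principal-like and 0.04 over 3 genes in podocyte-like nuclei. Of ribosomal protein genes 38 of 79 were at least 1.5-fold lower in thick ascending limb-like nuclei. Their median there was -0.56, beside -0.57 for chaperone genes. In distal convoluted tubule-like nuclei it was 33 of 79, with medians of -0.48 and -0.55. It was 30 of 78 in immune-like, 27 of 75 in podocyte-like, 21 of 79 in principal-like and 18 of 79 in connecting tubule-like nuclei. The share was smaller elsewhere, with 8 of 79 in proximal tubule-like nuclei (median -0.30).

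**Figure D4:**
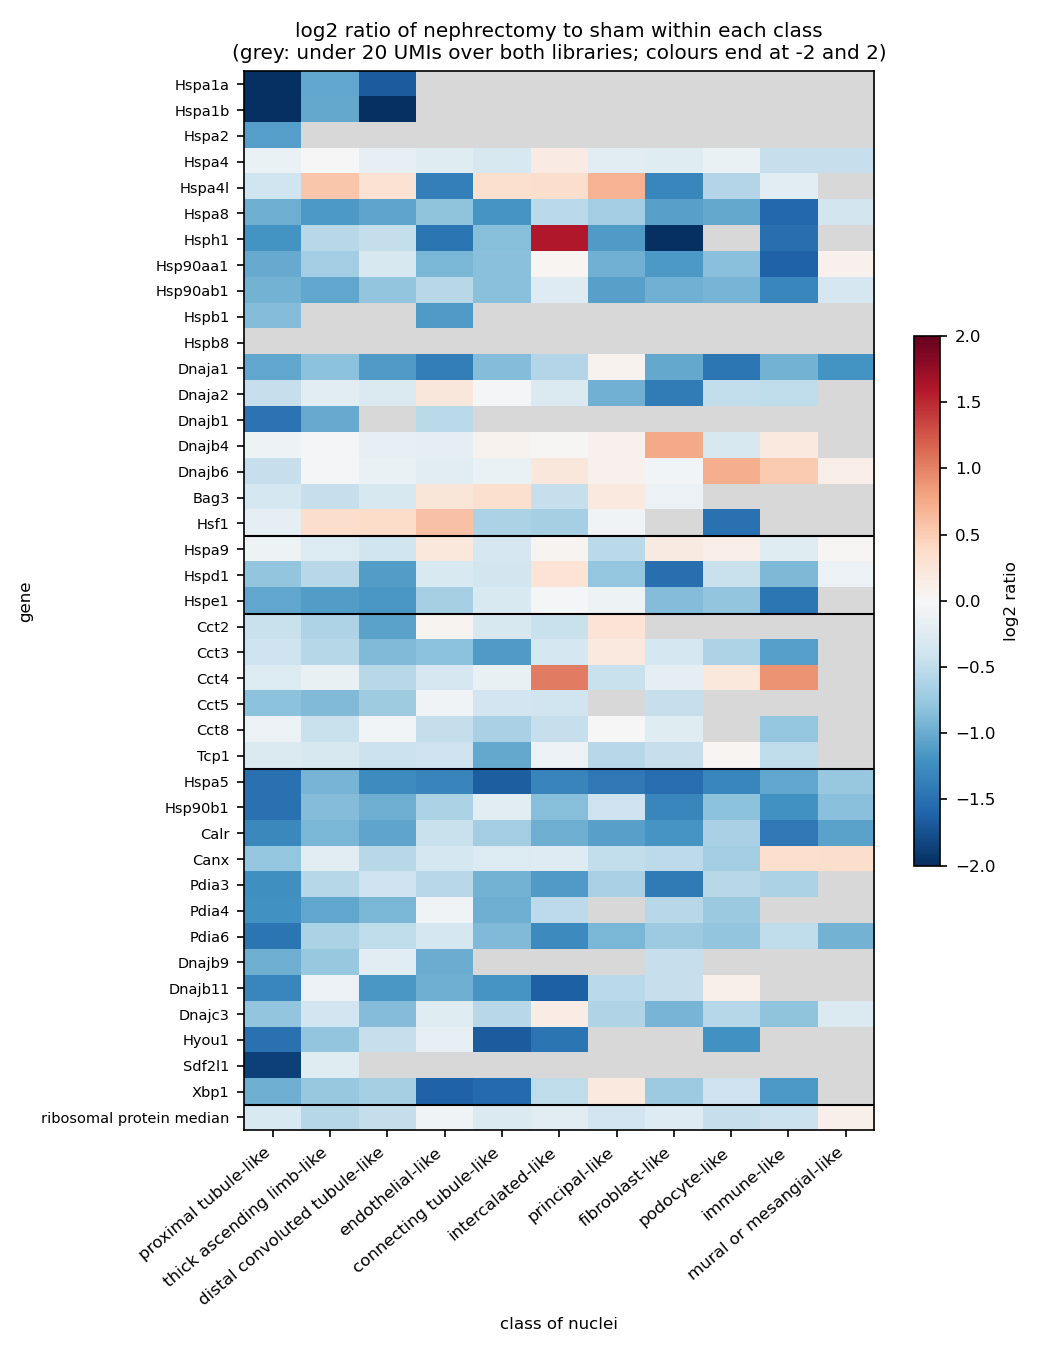
Colour shows the log2 ratio of nephrectomy to sham for each gene (rows) in each of 11 classes of nuclei (columns), with grey where a gene had under 20 UMIs over both libraries. The bottom row gives the median of the ribosomal protein genes. Hspa5 is blue (lower in nephrectomy) in all 11 classes, and Hsph1 in intercalated-like nuclei is the darkest red cell.

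Hspa5 was at least 1.5-fold lower in all 11 classes. Its level ran from 63.2 CPM in principal-like to 358 in podocyte-like nuclei of the sham library, and from 23.6 in principal-like to 146 in mural or mesangial-like nuclei of the nephrectomy library. The ratio ran from 0.318 in connecting tubule-like (0.195 to 0.512) to 0.588 in mural or mesangial-like nuclei (0.333 to 1.03). Calr and Dnaja1 were at least 1.5-fold lower in 10 of 11 classes and Hsp90b1 and Hspa8 in 9 of 11. Hspa4 and Hspa9 were measured in all 11 classes and passed the 1.5-fold limit in 0 of them. The genes that differed little in the whole library, such as Dnajb4, Dnajb6 and Hsf1, lay on either side of 1 in different classes.

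The ER group as a sum was lower in every class. The ribosomal protein sum was lower in all classes but endothelial-like and mural or mesangial-like nuclei. Where it was lower, its ratio ran from 0.729 in thick ascending limb-like to 0.926 in intercalated-like nuclei. In endothelial-like nuclei the ER sum was 1313 CPM in sham and 839 in nephrectomy, a ratio of 0.638 (0.581 to 0.701), beside a ribosomal protein ratio of 1.005 (0.978 to 1.03). In mural or mesangial-like nuclei the ER ratio was 0.691 (0.547 to 0.873) beside a ribosomal protein ratio of 1.14 (1.06 to 1.23). In thick ascending limb-like nuclei both were lower, at 0.655 for the ER sum and 0.729 for the ribosomal protein sum. Among sham classes the ER sum was highest in fibroblast-like nuclei, which export collagen, at 1751 CPM, and lowest in principal-like nuclei at 634; in the nephrectomy library these classes again stood at the ends, with 863 and 408, although the mural or mesangial-like level of 845 lay close to the upper end.

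The lowest ER ratio was in proximal tubule-like nuclei, which gave 10543531 sham and 12785950 nephrectomy UMIs. All 13 ER genes were at least 1.5-fold lower there, with a median log2 ratio of -1.29 and a summed ratio of 0.454 (0.441 to 0.468), beside a ribosomal protein ratio of 0.862. The interval of the fibroblast-like ratio, 0.493 (0.427 to 0.567), overlaps it. Hspa5 stood at 124 and 44.3 CPM, a ratio of 0.356 (0.322 to 0.393), and Hsp90b1 at 157 and 55.8, also 0.356 (0.325 to 0.389). Pdia6 had a ratio of 0.363, Hyou1 0.356, Dnajb11 0.404 and Calr 0.409, and Canx again lay nearest to sham at 0.588. Of 17 measured heat shock genes 10 were lower, among them Dnajb1 at 0.359 and Hsph1 at 0.438. Of all genes in the class 11.6% were that much lower. Within bins of like ribosomal protein share the summed ER ratio in this class was 0.408, 0.494 and 0.525. The ribosomal protein ratios, held close by the cut of the bins, were 0.938, 1.01 and 0.983.

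The 4 proximal tubule-like clusters were shared unevenly between the libraries, and the size of the ER difference varied with the cluster. Cluster 4, with 406 sham and 435 nephrectomy nuclei, had an ER sum of 1161 and 507 CPM, a ratio of 0.437 (0.416 to 0.459). Cluster 6, with 178 and 144 nuclei, had a ratio of 0.572 (0.531 to 0.617). Cluster 11, with 74 sham and 450 nephrectomy nuclei, had 617 and 488 CPM, a ratio of 0.791 (0.720 to 0.870), and cluster 2 was almost wholly from sham, with 268 and 4 nuclei. In sham the ER level of cluster 11 was thus below that of clusters 2, 4 and 6, which stood at 1277, 1161 and 919 CPM. The summed ER ratio of the whole class therefore mixes differences within clusters with a different makeup of clusters. With equal weight on the clusters that held at least 50 nuclei of each library the median of all measured chaperone genes was -0.72 in place of -0.97.

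The wider gene lists of the same pathways lay nearer to sham than the 40 genes. All lists were chosen with earlier results of these data known, so this contrast is a description only. For each count that follows, 10.7% of all genes were at least 1.5-fold lower and 9.54% that much higher. Of 28 other heat shock pathway genes 8 were at least 1.5-fold lower and 1 was higher, with a median of -0.39. The lowest were the polyubiquitin gene Ubb, at 264 and 99.7 CPM (ratio 0.377), and the small heat shock gene Cryab at 0.444. The highest were Fkbp5, an Hsp90 partner that glucocorticoids induce, at 302 and 475 CPM (ratio 1.57, 1.52 to 1.62), and Hspa12a at 1.38. Of 29 measured genes of the unfolded protein response beyond the 13, 7 were lower and 1 was higher, with a median of -0.19. Manf, a secreted ER stress protein, was lowest at 0.490 and Syvn1, a ubiquitin ligase of ER-associated degradation, next at 0.516, while Dnajc10 at 1.19 and Edem2 at 1.13 were highest. The gene counted as higher was Trib3, with 13 and 26 UMIs and a ratio of 1.52 (0.752 to 3.22); it is named after its value was seen.

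The other chaperonin and prefoldin genes resembled the measured subunits, with 2 of 9 at least 1.5-fold lower (10.7% of all genes) and a median of -0.39. Pfdn6 at 0.554 and Pfdn4 at 0.641, both subunits of the prefoldin complex that delivers substrates to the chaperonin, were lowest, and Vbp1 at 1.07 and Pfdn1 at 0.971 highest. Of 10 other mitochondrial folding and protease genes 1 was lower, near the 10.7% of all genes, and the median was -0.04. That gene was Grpel1, the nucleotide exchange factor of Hspa9, at 0.516, followed by Trap1 at 0.796, while Grpel2 stood at 1.27 and Htra2 at 1.26. Immediate early genes, which respond to handling of tissue within minutes, had a median of 0.22. Of 17 measured genes 3 were higher and 1 lower, beside 9.54% and 10.7% of all genes. Fosl2 was 1.65-fold and Klf4 1.35-fold the sham level, and Klf2 stood at 0.566 and Ier2 at 0.669. The other genes counted as higher were Fos (12 and 30 UMIs) and Egr1 (19 and 75 UMIs), named after their values were seen. The part of these genes, of sample handling and of cluster makeup in the chaperone difference was not tested.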

How the data were processed

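The deposited files hold raw counts of UMIs for each gene and barcode, made by the authors with Cell Ranger on mm10, per the file headers and the submitters' processing notes. The notes give version 7.1.0 and a file header gives 7.0.1. Intron counting, barcode calling and annotation are not given in the sources used here. The 40 genes and the other lists were chosen with earlier results of these data known.

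A barcode needed 200 genes and no more than 10% of its UMIs from mitochondrial genes; 109 sham and 112 nephrectomy barcodes did not meet this. Scrublet's own threshold called 0 sham and 1 nephrectomy barcodes, so nuclei in the top 3% of scores and clusters with at least 20% of such nuclei were removed instead, 116 and 123 in all. Clustering (scanpy 1.11.5, 2000 variable genes without the chaperone, other list, ribosomal protein and mitochondrial genes, 30 components, 15 neighbours, Leiden resolution 1) gave clusters that were named from at least 3 fixed markers; classes needed 30 nuclei in each library.

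UMIs were summed per library and class and divided by the total. Levels have exact Poisson intervals, ratios exact binomial ones and shares Clopper-Pearson ones, at 95%. PCR duplicates are collapsed by UMIs, and intervals cover counting error only. Medians and counts used genes with at least 20 UMIs over both libraries, and "lower" or "higher" means a ratio of at least 1.5 either way. Any of the 40 genes could be named, with full values for those with at least 100 UMIs and a 1.5-fold ratio and for each group's extremes; of the other lists the 2 highest and 2 lowest genes with at least 100 UMIs were named, and exceptions are stated. The computation was tested on simulated data. Sums and intervals were computed in Python (3.11.15; scipy 1.17.1) and TMM factors in edgeR (4.0.16, under R 4.3.3). Positions are from GENCODE on GRCm38. No p-value is given, because each group is 1 library. Alternatives were other scaling, filters, weights, thresholds and cluster resolution.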

Additional observations from a re-analysis of the deposited data

Results flagged for a closer look

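Hsph1 in intercalated-like nuclei stood apart from the other classes and is named after its value was seen. With 5 UMIs in sham and 34 in nephrectomy, spread over 5 and 28 nuclei, its ratio of nephrectomy to sham was 3.04 (1.18 to 9.95). The opposite direction was seen in endothelial-like nuclei at 0.362, in fibroblast-like nuclei at 0.121, in immune-like nuclei at 0.351 and in proximal tubule-like nuclei at 0.438. Intervals on either side of 1 drew attention to it. The difference between classes was not tested, since each class has 1 library per group.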

How the results depend on the processing

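Among the whole-library counts and medians and the class medians, 227 alternative values stayed within 1.5 times the count or within a range set for the median, and 14 did not. That range runs from the median of the single genes' lower counting limits to the median of their upper ones. It is as wide as the interval of a typical single gene, so it is a loose measure for a median. Among the 227, the heat shock median moved from -0.80 to -0.36 with equal weight on the 3 bins. The intercalated-like median, also among them, crossed from -0.37 to 0.05 after thinning, over 5 genes. At a 2-fold limit 6 heat shock, 1 mitochondrial, 0 chaperonin and 8 ER genes were lower and 0 heat shock genes higher, beside 3.06% of all genes lower and 3.66% higher. The higher heat shock gene, Hspb8, was also lost (0 genes) with a 5% mitochondrial limit, with equal weight per nucleus and after thinning to 1000 UMIs, where its log2 ratio was -0.13. With equal weight over the 3 bins of ribosomal protein share the median log2 ratio was -0.66 for mitochondrial chaperones, -0.79 for ER genes and -0.065 for ribosomal protein genes, and 0 chaperonin genes were lower. With the nephrectomy classes weighted to the sham makeup it was -0.74 for mitochondrial chaperones and -0.27 for ribosomal protein genes. The immune-like chaperonin median was 0.10 with equal weight per nucleus. Over 10 alternatives the ER median lay between -1.03 and -0.79 and the heat shock median between -0.89 and -0.36. Leaving out the low-depth unnamed clusters, an alternative chosen after seeing the data, gave -1.01 and -0.75. Weighting shared clusters gave no value for classes without a cluster of 50 nuclei in each library, and resolution 0.5 gave none for connecting tubule-like and mural or mesangial-like classes. No paired analysis was possible because each group has 1 library, and for the same reason no library could be left out. Depth limits Hspa2, Hspb8, Sdf2l1 and the smaller classes most.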

Other observations

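Outside the 40 genes, 29 genes held the ER stress response element in the promoter stretch searched, and 15 of them had at least 20 UMIs over both libraries. Of these 5 were at least 1.5-fold lower in the nephrectomy library and 0 higher, with a median log2 ratio of -0.34, beside 10.7% of all genes that much lower. They included Syvn1 (ratio 0.516) and Creld2 (0.557), genes of the unfolded protein response, and Xlr3b (0.260), 1700122E12Rik (0.640) and Xlr3a (0.474). The Xlr3 genes are near-identical copies, so their counts are uncertain. Xlr3a had 24 and 15 UMIs and 1700122E12Rik 32 and 27. Acacb, Pan2 and Acnat2 lay above the sham level, at 1.20, 1.26 and 1.28, and Gm6566 at 1.10. The highest were Zfp57 at 1.49 (24 and 47 UMIs) and Derl3, also of the unfolded protein response, at 1.38 (16 and 29 UMIs). In proximal tubule-like nuclei 8 of 15 measured genes were lower and 1 higher, with a median of -0.62. Of all genes in that class 11.6% were lower, and 1528 of 14407 were higher. The 51 measured genes with a 3-unit heat shock element outside the 40 had a median of 0.08, with 2 lower and 2 higher. In the whole library 10.7% of all genes were lower and 9.54% higher. These lists were formed, and these genes named, after values of the 40 genes were seen, and the values carry no explanation here.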
